A study of Mus musculus with 47 samples.

Results

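The RNA of LPS-treated Raw264.7 cells that lacked p65 and received the K122R mutant of p65 was compared with that of LPS-treated p65 KO cells, with 1 library on each side. Raw264.7 cells are a transformed mouse line with macrophage traits, and LPS is the bacterial lipopolysaccharide that drives classical macrophage activation through Toll-like receptor 4. These are 2 of the 47 samples of the series, which addresses how the chromatin reader ZMYND8 restrains inflammatory genes in macrophages. Of the 22863 genes in the table with the p65 KO library and the 22599 in that with the K122R library, 21494 shared a gene name and position. Among them, 13381 averaged 10 or more reads over the pair of libraries and were compared, and the other 8113 were not. The libraries held 15127110 reads (p65 KO) and 16653841 reads (K122R).

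Both libraries came from cells labelled C57BL/6 and treated with LPS, whose dose and time for these cells were not given in the sources used here. The p65 KO cells carried a lentiviral CRISPR guide against Rela, the gene for p65. For its experiments on ZMYND8 binding the study describes p65 KO cells that also received a vector. Whether those of this RNA library did was not stated. The K122R cells were p65 KO cells to which p65 with a lysine replaced by arginine (K122R) was returned from a retroviral vector. Another library, labelled p65 KO + WT, is printed beside them as a reference for p65 with that lysine intact. Its column heading names only a wild type, so unmodified Raw264.7 cells cannot be told apart from rescued ones by the tables. Whether each line was 1 clone or a pool was not stated.

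p65 is the transactivating subunit of NF-κB, a family of dimeric transcription factors held in the cytoplasm by IκB proteins until a signal such as LPS releases them. In the nucleus the dimers bind κB sites in promoters and enhancers of cytokine, chemokine and effector genes, and also of their own inhibitors, which closes a feedback loop. Lysines of p65 can be acetylated, and an arginine keeps the positive charge but cannot be acetylated at that position. The comparison addresses which transcripts differ once the non-acetylatable p65 is present in cells edited to lack their own p65.

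The sequences of the guide and of the mutagenic primer are given because they define the 2 cell lines. The oligo used to clone the guide carries the 20-base target in capitals.
sgP65 oligo: caccgCGATTCCGCTATAAATGCGA
target site with its PAM in capitals: cgattccgctataaatgcgaGGG
The target lies on the plus strand at chr19:5638613-5638635 of mm10 (GRCm38), PAM included, and had 1 exact match on that chromosome. It falls in coding exon 3 of 11 of the transcript Rela-201, at coding bases 97 to 116. In the forward primer for the mutation and in mouse Rela at the same place, exon 5, chr19:5639872-5639895, the bases that differ are in capitals.
K122R forward primer: ggAatccagtgtgtgaGgaagcgG
mouse Rela: ggGatccagtgtgtgaAgaagcgA
Counted from 1 at the primer's 5′ end and written from mouse to primer, the differences are G3A, A17G and A24G. A17G falls on the middle base of the mutated codon and gives K122R, and the others fall on the last bases of codons 117 and 124 and change no residue. The primer used to clone the start of p65 also differed from mouse Rela at the last bases of codons 3 and 5 (T9A and T15C, counted from the A of the start codon), the former giving D3E, so the returned sequence need not have been the mouse one. How many of its reads were lost or kept when aligned to the mouse genome was not tested.

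Rela (chr19:5637440-5648131, plus strand) had 765 reads in the p65 KO library, 5850 in the K122R library and 1601 in the WT p65 library. It was 7.69-fold higher with K122R than in p65 KO cells, a log2 ratio of 2.94 with exact 95% limits of 2.83 to 3.05. Limits here cover counting error only and compare these libraries, not the conditions, because there are no replicates and therefore no test. Rela reads in the p65 KO library were not at 0, which is measured RNA and does not report on protein. The WT p65 library lay 2-fold above p65 KO. Against WT p65 the K122R library held 3.84-fold more Rela reads (log2 ratio 1.94, limits 1.86 to 2.02), so any difference between the K122R and WT p65 libraries goes with a difference in the amount of Rela RNA, and these cannot be told apart here.

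Nos2, the inducible nitric oxide synthase of activated macrophages, had 3855, 9701 and 3414 reads in the p65 KO, K122R and WT p65 libraries. It was 2.53-fold higher in the K122R library than in p65 KO (log2 ratio 1.34, limits 1.29 to 1.39), and the WT p65 library was the lowest of the 3. Zmynd8 had 1624, 1070 and 1826 reads and was 1.51-fold lower with K122R (log2 ratio -0.59, limits -0.71 to -0.48). In bulk RNA, fewer cells that express a gene and less of its RNA per cell cannot be told apart.

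**Figure D1:**
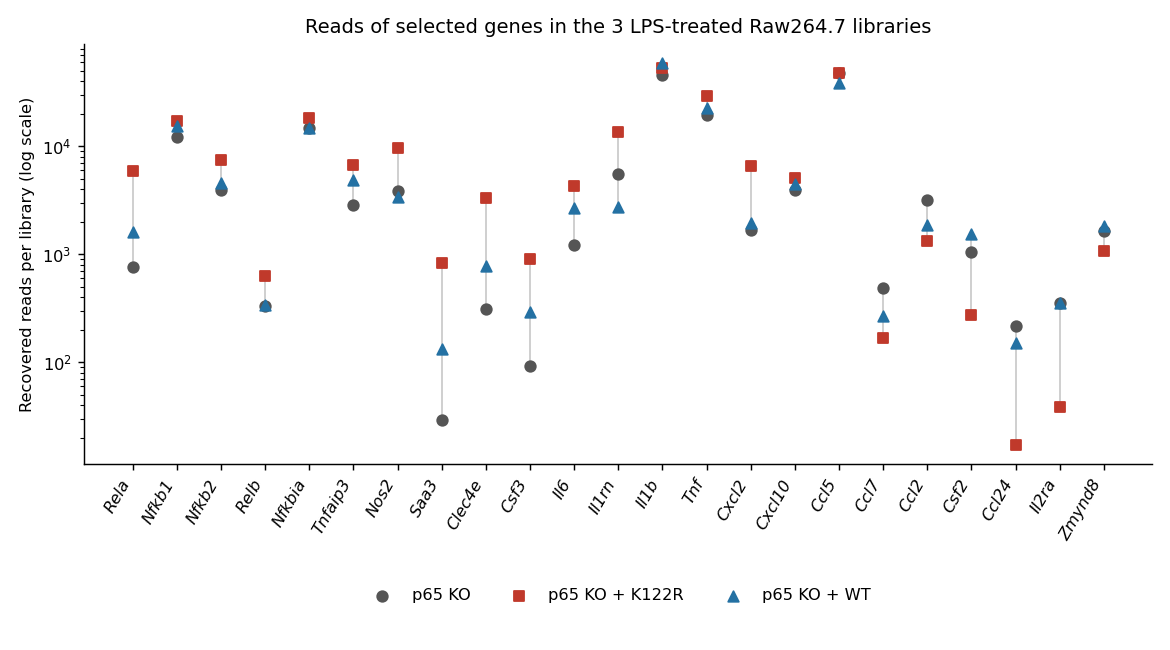
Recovered reads (log scale) of 23 genes in the p65 KO (circles), p65 KO + K122R (squares) and p65 KO + WT (triangles) libraries, 1 library each. Rela, Saa3, Clec4e, Csf3 and Cxcl2 stand highest in the K122R library, and Csf2, Ccl24, Il2ra, Ccl2 and Ccl7 stand lowest there.

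Differences of modest size ran across much of the transcriptome. The study's methods use a threshold of 1.2-fold together with cutoffs on p-value and false discovery rate, and here the fold stood alone. By it, 3464 genes were higher with K122R (25.9% of those compared) and 3644 were lower (27.2%). These counts depend on the scale, here the median ratio: with library totals, which moved the median of all genes by -0.15 (log2), they were 2315 and 5246, so that 30.6% instead of 48.7% of the calls were on the higher side, and with the housekeeping genes as the scale they were 2774 and 4490 (38.2%). At 2-fold or more the counts were 542 (4.05%) and 555 (4.15%). Counting limits lay wholly past 1.2-fold for fewer genes than the fold alone called, 1585 on the higher side (11.8%) and 1265 on the lower (9.45%). The median absolute log2 ratio was 0.28, and the 5th and 95th percentiles were -0.91 and 0.90. The balance changed with expression level. Among the 3242 genes that averaged 1000 or more reads, 64 were at least 2-fold higher and 7 at least 2-fold lower. The median log2 ratio of the 3242 was 0.10, with 2082 above 0 and 1160 below. For the 228 genes averaging 10000 or more reads it was 0.17. Of the 542 genes at least 2-fold higher, 205 averaged 100 or more reads, and of the 555 at least 2-fold lower, 121 did.

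**Figure D2:**
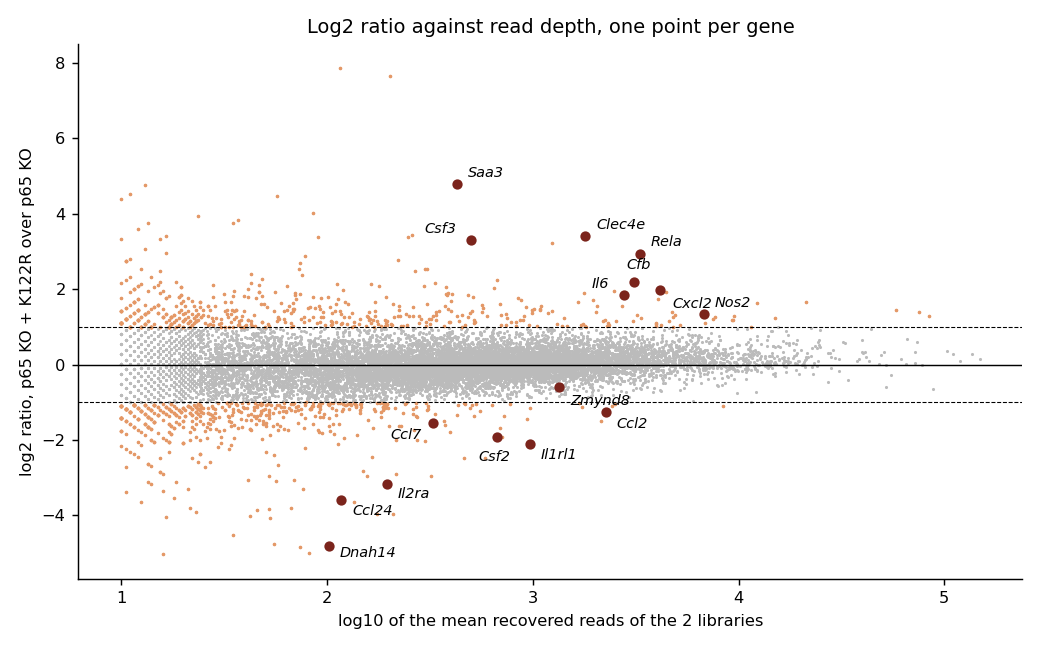
Log2 ratio of the K122R over the p65 KO library (vertical axis) against log10 of the mean reads (horizontal axis) for 13381 genes, with dashed lines at 2-fold. Labelled genes are Rela, Nos2, Zmynd8 and members of the ends of the ranking or of the cytokine and chemokine lists. Above a mean of 1000 reads the points past 2-fold lie mostly on the higher side.

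Among protein-coding genes averaging 100 or more reads, Saa3 and Clec4e stood furthest above p65 KO. Saa3, an acute-phase serum amyloid, had 29 reads in p65 KO, 824 with K122R and 131 with WT p65, a 27.7-fold difference between the first pair (log2 ratio 4.79, limits 4.30 to 5.43). Clec4e, the C-type lectin Mincle that senses mycobacterial and damaged-cell glycolipids, had 310, 3290 and 773 reads and was 10.6-fold higher. Timp1, a metalloproteinase inhibitor, had 43, 453 and 134 reads and was 10.4-fold higher. Csf3, which encodes G-CSF, had 92, 909 and 294 reads and was 9.85-fold higher, and its receptor gene Csf3r had 81 reads in p65 KO and 454 with K122R and was 5.58-fold higher, with WT p65 at 1.44-fold over p65 KO. Ligand and receptor of this pathway thus stood on the same side. Fas, a death receptor, had 90, 523 and 204 reads (5.79-fold), and Cfb, a complement factor, had 1113, 5095 and 1842 reads (4.60-fold). Lta, the gene of lymphotoxin α, had 88 reads in p65 KO, 513 with K122R and 84 with WT p65.

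Of all genes averaging 100 or more reads, the highest ratios were those of a pair of non-coding RNAs with next to no reads in p65 KO cells. Gm35908 had 0 reads in p65 KO, 231 with K122R and 2 with WT p65, which is at least 77.5-fold higher against a floor of 3 reads. Gm40812 had 1, 404 and 51 reads, a ratio of 203 with the pseudocount of 1 used for the other ratios. Without the pseudocount the ratio was 407, with limits of 72.6 to 16096, and it rests on 1 read in p65 KO. A pair of lincRNA genes on chromosome 6, ENSMUSG00000097815.1 (239, 2242 and 582 reads) and ENSMUSG00000106874.1 (43, 473 and 106 reads), were 9.40-fold and 10.8-fold higher. They overlap on opposite strands, at chr6:18844220-18847360 and chr6:18845910-18848207, and strand-specific counting was not stated, so their reads cannot be told apart. The remaining members of the 15 highest were Syne2 and Adap2, at 6.80-fold and 4.76-fold. The 15 were chosen for their ratio in these libraries, so no place of the WT p65 library between the pair is read from them.

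The genes furthest below p65 KO were ranked over the same range of reads. Ccl24, the eosinophil-attracting chemokine eotaxin-2, had 218 reads in p65 KO, 17 with K122R and 149 with WT p65, and was 12.1-fold lower in K122R than in p65 KO. Il2ra, the α chain of the interleukin-2 receptor, had 351, 38 and 352 reads and was 8.97-fold lower. Il1rl1, the interleukin-33 receptor ST2, had 1579, 362 and 758 reads and was 4.33-fold lower. These genes too were chosen for their ratio, so the place of the WT p65 library is not read from them. Tnfsf8, the CD30 ligand gene, had 281, 50 and 16 reads. Tnc, the matrix protein tenascin C, had 185, 42 and 78 reads.

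The others of the 15 lowest were genes of varied function. Dnah14, a dynein heavy chain gene, had 198, 6 and 216 reads and was 28.3-fold lower (limits of the log2 ratio -6.50 to -3.89). LOC105244034 had 331, 20 and 32 reads. St5, Iqsec3, Greb1, Maged1, Insrr, Trim2, Tcam1 and Npl were 5.53-fold to 15.6-fold lower with K122R.

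Among the NF-κB subunits, 4 of 5 were at least 1.2-fold higher with K122R and none was lower, with a median log2 ratio of 0.94 beside 0.00 for all genes. The shares of all genes to read this and the following counts against are 25.9% higher and 27.2% lower. These shares cover all read depths, while genes averaging 1000 or more reads had a median log2 ratio of 0.10. Lists of abundant genes are thus set against a lower level than that of genes at their depth. Rela is the returned gene and is counted in that number. Nfkb2, which encodes the p100 precursor of the non-canonical pathway, had 3954, 7526 and 4593 reads (1.92-fold). Rela and Nfkb2 are on chromosome 19, which was shifted as a whole, as described further on. After subtraction of chromosome medians the log2 ratio of Nfkb2 and the median of the subunits were 0.77, with all 5 higher. With library totals both values were 0.79. Relb, the partner of processed p100, had 330, 632 and 338 reads (1.92-fold). Nfkb1, the p105 precursor of p50, was 1.41-fold higher with 12231, 17096 and 15353 reads. Rel, the c-Rel gene, had 1986, 2284 and 2780 reads, a ratio of 1.16 that was under the threshold.

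The 16 inhibitors and feedback genes of the pathway did not stand on one side. They numbered 6 higher (37.5%) and 3 lower (18.8%), with a median log2 ratio of 0.15, beside 25.9% and 27.2% of all genes. With library totals as the scale they were 3 higher and 4 lower, so the balance turned, and the median was -0.0023. Tnfaip3, the ubiquitin-editing inhibitor A20, had 2832, 6725 and 4865 reads and was 2.39-fold higher, the most of this group. Zc3h12a, which encodes the cytokine mRNA nuclease Regnase-1, and Tnip1, an A20 partner, were 1.64-fold and 1.60-fold higher. Nfkbia, the classical IκBα gene, had 14657, 18248 and 14649 reads and was 1.25-fold higher. That value was close to the level of its chromosome as a whole, since the log2 ratio of 0.33 fell to 0.03 when the median of its chromosome was subtracted. With library totals it was 0.18, under the threshold. Birc2, Tnip3 and Nfkbie were the 3 lower members, with log2 ratios of -0.37, -0.29 and -0.28.

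Cytokine genes were split between higher and lower members. Of 20 listed, 19 were compared, 10 (52.6%) were higher and 4 (21.1%) lower, beside 25.9% and 27.2% of all genes, and the median log2 ratio was 0.54. Il6 had 1213, 4318 and 2694 reads and was 3.58-fold higher with K122R (log2 ratio 1.84, limits 1.75 to 1.93). Il1rn, the natural antagonist of the interleukin-1 receptor, had 5508, 13482 and 2741 reads and was 2.46-fold higher, with WT p65 below p65 KO. Il23a had 33, 103 and 42 reads (3.08-fold), and Il27, a subunit of a cytokine of the interleukin-12 family, had 1911, 4212 and 2728 reads (2.22-fold). With Csf3, these were the 5 members at least 2-fold higher. Tnf, with 19603, 29261 and 22549 reads, and Il1a, with 31117, 48334 and 53852 reads, were 1.50-fold and 1.56-fold higher. Il1b was abundant in each library, at 45257, 53234 and 58910 reads, and its ratio of 1.18 was under the threshold.

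In the opposite direction, Csf2, the gene of GM-CSF, had 1057 reads in p65 KO, 276 with K122R and 1532 with WT p65, and was 3.80-fold lower with K122R (log2 ratio -1.92, limits -2.12 to -1.74). Il12b had 37, 9 and 52 reads and was 3.78-fold lower. Both therefore stood lowest in K122R and highest in WT p65. Csf3 and Csf2, colony-stimulating factors for granulocytes and for granulocytes and macrophages, lay on opposite sides of the comparison. Ifnb1 and Csf1 were the remaining lower members, at 1.92-fold and 1.29-fold.

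Chemokine genes had shares near those of all genes. Of 20 listed, 15 were compared, and 4 (26.7%) were higher and 5 (33.3%) lower, beside 25.9% and 27.2%, with a median log2 ratio of 0.02. With library totals 2 were higher and 5 lower, and the median was -0.13. Cxcl2, a neutrophil attractant, had 1689, 6575 and 1947 reads and was 3.92-fold higher (log2 ratio 1.97, limits 1.89 to 2.05), the only one past 2-fold on that side. The monocyte attractants Ccl2 (3193, 1324 and 1855 reads) and Ccl7 (491, 166 and 266 reads) were 2.40-fold and 2.93-fold lower with K122R. Both were highest in p65 KO. Ccl22, one of the most abundant transcripts, was 1.57-fold lower, with 108269, 68617 and 107334 reads. Ccl3 and Ccl5, the first with 115526, 123095 and 101233 reads and the second with 47770, 47984 and 38936, differed by log2 ratios of 0.10 and 0.02.

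A list of 8 genes at super-enhancers, clusters of strong enhancers, was taken from the text, figures and primer table of the study, which also names others that are not in it. The study chose them on its own samples, so they are no independent evidence of a direction. They divided into 3 higher, 3 lower and 2 under the threshold. Il27, Il1a and Cxcl10 were the higher ones, the last with 3956, 5102 and 4432 reads (1.30-fold). Ccl7, Ccl2 and Ccl22 were the lower ones, and Ccl5 and Il1b were under it. With library totals Cxcl10 was also under it (log2 ratio 0.23), and the median log2 ratio of the 8 turned from 0.13 to -0.02.

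Of the 21 lists with 5 or more compared members, the inflammatory effectors had the highest median. Of 24 listed genes 20 were compared, 13 (65%) were higher and 5 (25%) lower, 10 were at least 2-fold higher and none at least 2-fold lower (4.05% and 4.15% of all genes), with a median log2 ratio of 1.01. Beside Nos2, a gene for its substrate and one for its cofactor were higher, while the arginine transporter gene Slc7a2 had 1, 0 and 5 reads and was not compared. Ass1, which recycles citrulline to its substrate arginine, had 582, 1592 and 642 reads (2.75-fold). Gch1, the first enzyme of the synthesis of its cofactor tetrahydrobiopterin, had 1131, 2368 and 1038 reads (2.11-fold). For Nos2 and Gch1 the WT p65 library lay below p65 KO, and for Ass1 it was within 1.06-fold of it.

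Acod1, which makes itaconate, had 41235, 108712 and 54120 reads and was 2.65-fold higher. Sod2, the mitochondrial superoxide dismutase, had 1379, 4053 and 2315 reads (2.96-fold), and Cybb, the catalytic subunit of the phagocyte NADPH oxidase, had 17363, 32384 and 25966 reads (1.88-fold). In the prostaglandin E2 pathway the enzymes diverged. Ptgs2, the upstream cyclooxygenase COX-2, had 63047, 41237 and 60996 reads and was 1.52-fold lower, while the terminal synthase Ptges had 45, 157 and 71 reads and was 3.46-fold higher. Cd80 and Cd86, the paired costimulatory ligands, also diverged: Cd80 had 741, 417 and 776 reads (log2 ratio -0.82) and Cd86 had 219, 422 and 237 reads (log2 ratio 0.95).

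More interferon-response genes were higher than lower, by small amounts. Of 30 compared, 17 (56.7%) were at least 1.2-fold higher and 1 (3.33%) was lower, beside 25.9% and 27.2% of all genes, with a median log2 ratio of 0.32. With library totals 11 were higher and 1 lower, and the median was 0.17. Rsad2, the antiviral enzyme viperin, had 48718, 118927 and 71416 reads (2.46-fold), and Gbp2, a guanylate-binding protein, had 2613, 5325 and 2792 reads (2.05-fold). Only these 2 passed 2-fold, and Gbp2 fell under it with library totals (log2 ratio 0.89). After subtraction of the chromosome median both were under it, Gbp2 at 0.97 and Rsad2 at 0.998. Rsad2 and the neighbouring Cmpk2 (1.91-fold) are on chromosome 12, which was shifted as a whole, as described further on.

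**Figure D3:**
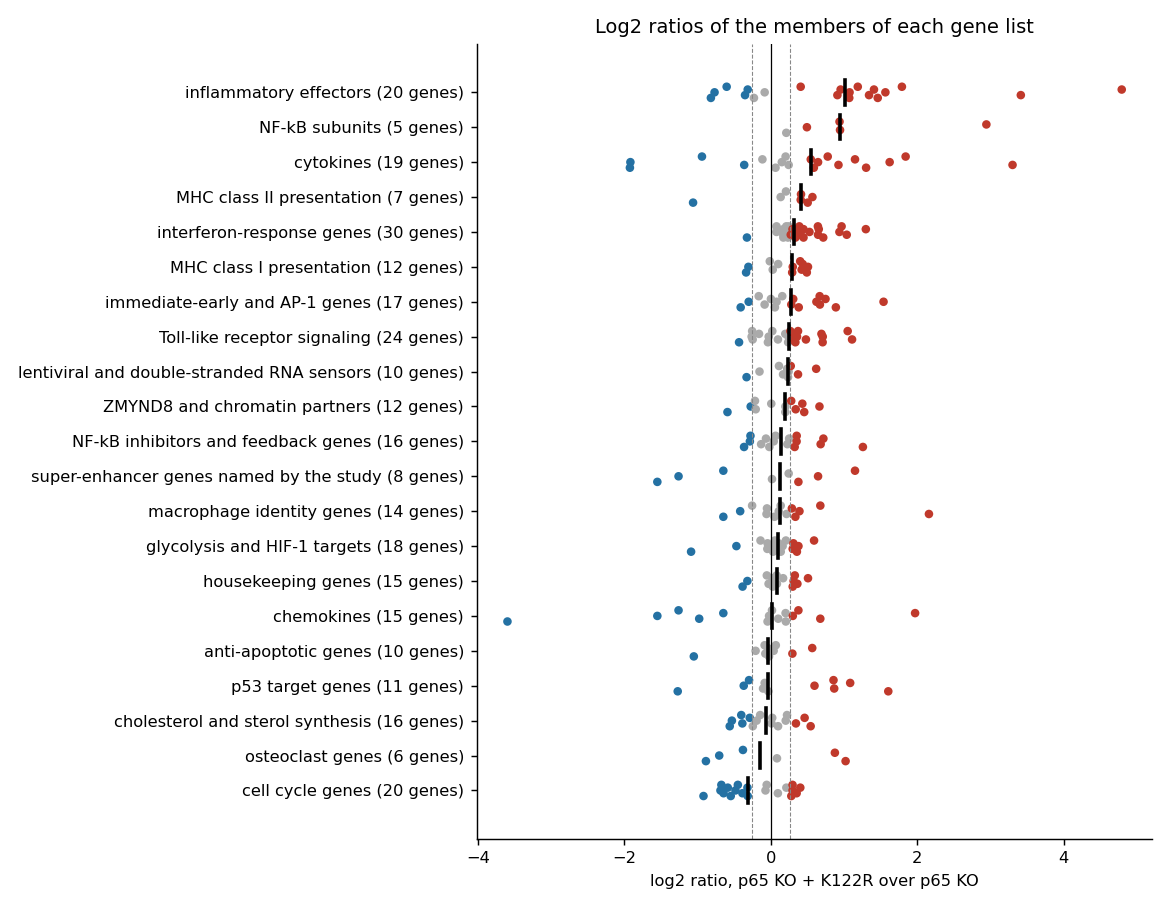
Log2 ratio of the K122R over the p65 KO library for each compared member of 21 gene lists, with a black bar at the list's median and dashed lines at 1.2-fold. Red points are at least 1.2-fold higher, blue points at least 1.2-fold lower and grey points between. The inflammatory effectors have the highest median, 1.01, and the cell cycle genes the lowest, -0.32.

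Upstream of NF-κB, 12 of 24 Toll-like receptor pathway genes (50%) were higher and 1 (4.17%) was lower, beside 25.9% and 27.2% of all genes. Their median log2 ratio was 0.25, or 0.11 with library totals. Tlr4, the LPS receptor, had 261, 424 and 175 reads (1.63-fold), and Irak3, the inhibitory kinase-like IRAK-M, had 160, 330 and 314 reads (2.07-fold). Myd88, the main adaptor, had 1631, 1950 and 2106 reads, a log2 ratio of 0.27. Immediate-early and AP-1 genes numbered 9 higher and 2 lower of 17. Egr1 had 475, 1373 and 220 reads (2.90-fold), Dusp1, a MAP kinase phosphatase, had 1631, 2999 and 1079 reads (1.85-fold) and Atf3 had 4651, 7114 and 2535 reads (1.54-fold). In these 3 the WT p65 library was the lowest.

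Of 12 compared class I antigen presentation genes, 7 (58.3%) were higher and 2 (16.7%) lower, beside 25.9% and 27.2% of all genes, and the median log2 ratio of 0.29 became 0.15 with library totals. Of 7 class II genes 4 were higher and 1 lower. Counting limits lay wholly past 1.2-fold for 1 of the 7, on the higher side, where 11.8% of all genes did so. The class II invariant chain gene Cd74 had 7222, 9520 and 4214 reads. The 10 anti-apoptotic genes had a median log2 ratio of -0.03, or -0.18 with library totals, with Bcl2 lower (266, 127 and 274 reads) and Mcl1 and Xiap higher. Of the 12 genes for ZMYND8 and chromatin cofactors, 5 were higher and 2 lower, the acetyltransferase gene Ep300 with 1743, 2744 and 2392 reads being the highest at a log2 ratio of 0.66. Kdm1a, the LSD1 demethylase gene, had 1580, 1802 and 1778 reads, a log2 ratio of 0.20.

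Of 20 cell cycle genes, 11 (55%) were lower and 5 (25%) higher, beside 27.2% and 25.9% of all genes, with a median log2 ratio of -0.32, or -0.08 after subtraction of each gene's chromosome median. The mitotic kinase genes Aurka (926, 486 and 1181 reads) and Plk1 (613, 381 and 683 reads) and the topoisomerase gene Top2a (4316, 2853 and 6318 reads) were 1.89-fold, 1.60-fold and 1.50-fold lower with K122R. Mki67, the proliferation marker, had 2733, 3467 and 4274 reads and was 1.28-fold higher, so the proliferation genes did not all lie on one side. Of 11 p53 targets, 5 were higher and 3 lower. Bbc3, the pro-apoptotic PUMA gene (104, 316 and 142 reads, 3.04-fold), and Mdm2 (2232, 4013 and 2294 reads, 1.81-fold) were among the higher, and Phlda3 (33, 13 and 34 reads, log2 ratio -1.27), Zmat3 (-0.37) and Pmaip1 (-0.30) were the lower. The median log2 ratio of -0.03 became 0.28 with a minimum of 50 reads and -0.18 with library totals.

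To relate these differences to the LPS response of primary cells, genes were ranked by their response in wild-type bone-marrow-derived macrophages (BMDMs), with 1 untreated and 1 LPS-treated library. Genes averaging 100 or more counts were kept, and 813 of them were at least 4-fold higher with LPS once the counts had been scaled by their median ratio, 0.582. Of these, 650 were compared in Raw264.7 cells. Among the 650, 352 (54.2%) were at least 1.2-fold higher with K122R than in p65 KO and 76 (11.7%) were lower, beside 25.9% and 27.2% of all genes, and the median log2 ratio was 0.31. At 2-fold, 95 were higher and 15 lower, where 4.05% and 4.15% of all genes were. Of the 589 genes at least 4-fold lower with LPS, 508 were compared: 66 (13.0%) were higher with K122R and 234 (46.1%) lower, with a median of -0.23. With library totals, which lowered all genes, 269 of the 650 (41.4%) were higher and 113 (17.4%) lower (median 0.17), and 40 of the 508 (7.87%) were higher and 311 (61.2%) lower (median -0.38). The same 650 and 508 genes had medians of -0.0020 and 0.0014 in the WT p65 library against p65 KO.

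The medians were ordered by the size of the response in macrophages. They ran from -0.35 for the 40 genes with a log2 response to LPS below -4, through -0.01 for the 2921 genes between -1 and 0, to 0.41 for the 172 genes at 4 or over. Quartiles of the last bin were 0.06 and 1.10, so members differed widely. Saa3, Clec4e, Timp1, Fas, Csf3r, Adap2 and Cfb of the 15 highest genes were in the LPS-induced list. Lower members of that list included Il2ra, Il12b, Ccl7, Ccl2 and Slamf8, the last with 616, 175 and 441 reads (3.48-fold lower). The glycolytic regulator Pfkfb3, also LPS-induced in macrophages, had 3315, 1548 and 4563 reads and was 2.13-fold lower. No untreated Raw264.7 library enters this comparison, so what LPS did in these lines was not measured by it.

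**Figure D4:**
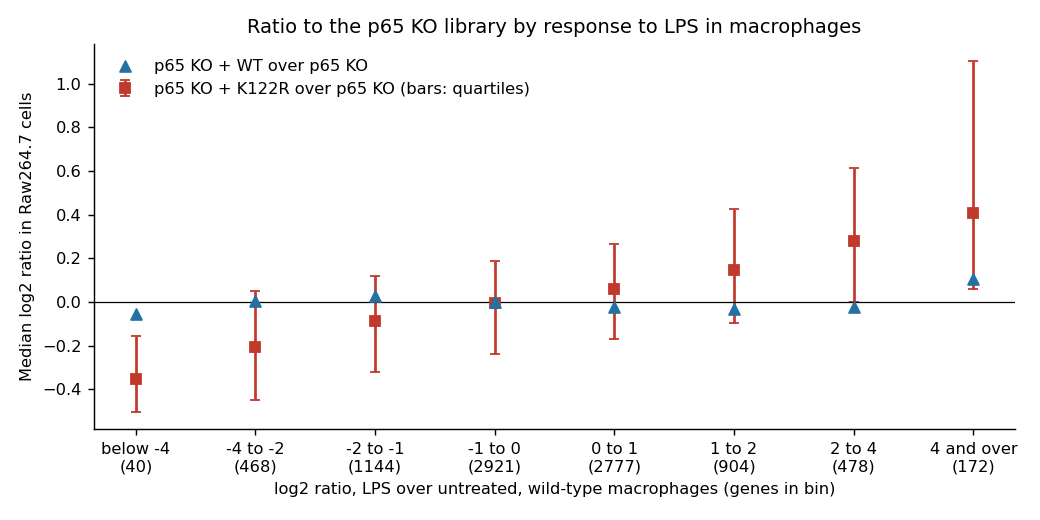
Median log2 ratio to the p65 KO library for genes binned by their log2 response to LPS in wild-type macrophages, with the number of genes under each bin. Squares are the K122R library with bars from the lower to the upper quartile, and triangles are the WT p65 library. K122R medians go from -0.35 in the leftmost bin to 0.41 in the rightmost, and those of WT p65 stay between -0.05 and 0.10.

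Promoter sequence was examined at 250 bases before each RefSeq gene start (GRCm38.p6) for GGGNNTTTCC, a strict form of the κB site, on both strands. Among 27025 genes in the promoter table, 447 (1.65%) held a match. Of the compared genes 9205 had an entry, and 176 (1.91%) held one, with a median log2 ratio of 0.02 beside 0.00 for the genes without. Of the 176, 52 (29.5%) were at least 1.2-fold higher and 43 (24.4%) lower, beside 24.6% and 26.6% of the genes without it. Among LPS-induced genes, 13 of 17 with the motif (76.5%) were higher and 1 (5.88%) was lower, with a median of 0.40, beside 259 (53.8%) and 58 (12.1%) of the 481 without, with a median of 0.31. Of the 323 genes at least 2-fold higher with an entry, 11 (3.41%) held the motif, and of the 353 at least 2-fold lower, 6 (1.70%). These 11 included Cxcl2, Il6, Il1rn, Tnfaip3, Bbc3 and Myadm. Promoters of 4 genes described above are printed with the matches in capitals, because the motif in them can be read against their ratios. They are written 5′ to 3′ in the direction of transcription.
Il6, chr5:30012864-30013113, plus strand: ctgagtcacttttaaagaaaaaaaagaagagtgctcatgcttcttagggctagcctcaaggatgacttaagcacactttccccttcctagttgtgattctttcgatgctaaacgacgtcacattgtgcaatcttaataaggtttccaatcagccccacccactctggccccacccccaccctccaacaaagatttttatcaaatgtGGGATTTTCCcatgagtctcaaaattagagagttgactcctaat
Cxcl2, chr5:90903649-90903898, plus strand: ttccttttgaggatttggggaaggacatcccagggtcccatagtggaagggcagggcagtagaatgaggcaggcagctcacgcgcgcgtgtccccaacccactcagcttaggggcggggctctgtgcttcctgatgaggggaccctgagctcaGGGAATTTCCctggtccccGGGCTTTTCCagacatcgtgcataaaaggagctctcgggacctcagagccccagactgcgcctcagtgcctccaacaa
Tnfaip3, chr10:19015411-19015660, minus strand: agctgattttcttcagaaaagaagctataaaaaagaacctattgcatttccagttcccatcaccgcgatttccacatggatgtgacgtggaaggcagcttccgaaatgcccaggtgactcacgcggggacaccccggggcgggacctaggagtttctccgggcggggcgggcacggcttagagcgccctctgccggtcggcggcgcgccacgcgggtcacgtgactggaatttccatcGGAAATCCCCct
Nfkbia, chr12:55492648-55492897, minus strand: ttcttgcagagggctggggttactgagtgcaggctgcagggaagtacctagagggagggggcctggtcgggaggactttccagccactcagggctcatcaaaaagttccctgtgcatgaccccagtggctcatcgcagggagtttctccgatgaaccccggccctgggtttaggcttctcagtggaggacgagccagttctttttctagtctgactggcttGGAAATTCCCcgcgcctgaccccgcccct
Cxcl2 held a pair of matches, whose first bases lay 97 and 78 bases before the start. Il6 held 1 at 44 bases, Nfkbia 1 at 29 bases and Tnfaip3 1 at 12 bases. Tnfaip3 had another promoter entry, at chr10:19011964-19012213, that held none, and a gene was counted as holding the motif if any of its entries did. The 4 genes differed by 3.92-fold, 3.58-fold, 1.25-fold and 2.39-fold in that order. They were chosen from genes described above, and over all 176 genes with a match ratios lay on both sides, down to 0.18 for P2rx1 (27, 4 and 22 reads). Saa3 and Clec4e held none of these letters in their windows. A match is a description of the sequence and says nothing of binding, and no match says only that these letters were not in the window.

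Chromosomes did not share 1 level in the comparison. The median log2 ratio of K122R over p65 KO was -0.24 for the 849 genes of chromosome 1, 0.30 for the 495 of chromosome 12 and 0.17 for the 463 of chromosome 19, which carries Rela. The other autosomes and X lay between -0.09 and 0.10. The 15 compared mitochondrial genes, not plotted, had a median of 0.16. In the WT p65 library against p65 KO, the 19 autosomes and X lay between -0.06 and 0.06. The Y-linked genes Ddx3y (677, 1810 and 400 reads), Eif2s3y (349, 846 and 253 reads), Kdm5d (207, 469 and 104 reads) and Uty (153, 370 and 112 reads) were 2.27-fold to 2.69-fold higher with K122R. Xist had 3, 0 and 2 reads. Such shifts are differences between the lines as sequenced, and their part in the results was not tested. After subtraction of each chromosome's median, Rela kept a log2 ratio of 2.78 and Nos2 1.43. The LPS-induced list then had a median of 0.32.

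**Figure D5:**
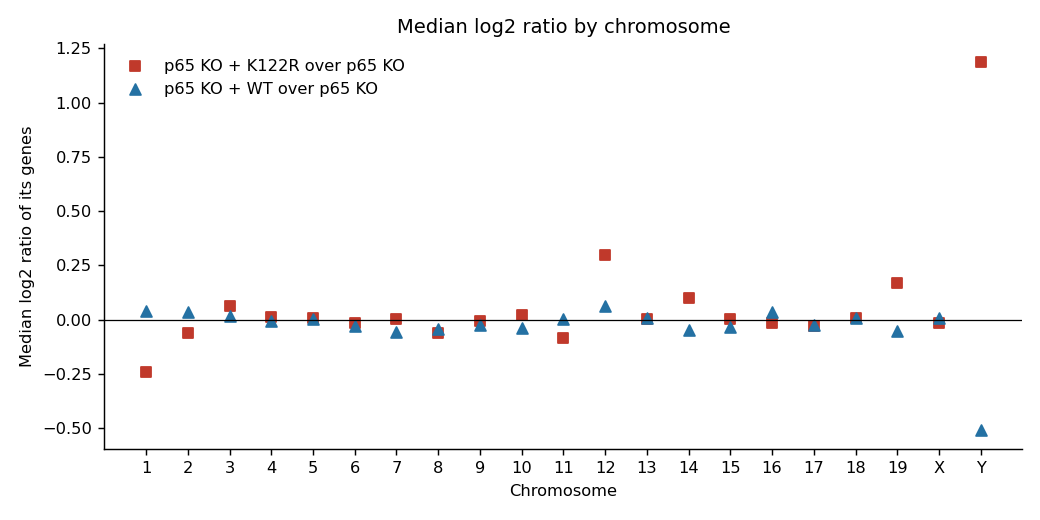
Median log2 ratio to the p65 KO library of the genes on each chromosome, for K122R (squares) and WT p65 (triangles). Chromosomes 1, 12, 19 and Y stand away from 0 for K122R, at -0.24, 0.30, 0.17 and 1.19, and Y stands at -0.51 for WT p65.

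The cell type label was checked against marker genes. Of 16 macrophage identity genes, 14 were compared, while Mertk and Mrc1 were near absent, with at most 4 and 12 reads in a library. Abundant members included Lyz2 (4323, 5241 and 4373 reads), Cd68 (5389, 5162 and 4771 reads) and Spi1 (7689, 6398 and 7022 reads). Of the 14, 5 were higher and 2 lower with K122R. Cx3cr1, the fractalkine receptor, had 123, 549 and 166 reads (4.46-fold higher), and Csf1r, the M-CSF receptor, had 4128, 2616 and 3034 reads (1.57-fold lower). The 8 neutrophil markers summed to 9, 9 and 7 reads, with none over 6, and the 10 lymphocyte markers to 13, 29 and 9 reads. The dendritic cell markers summed to 426, 455 and 322 reads and the fibroblast and epithelial ones to 186, 143 and 143, and their part in the results was not tested.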

How the data were processed

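RNA of LPS-treated Raw264.7 cells was sequenced as 1 library per genotype. Per the study's methods, reads were aligned by TopHat to mm10, and Bowtie 0.12.2 and CASAVA 1.4 are named in the submitters' processing notes. The authors deposited a scaled expression signal per gene, in which every value was a whole multiple of the smallest step (100% of values within 0.02 of a whole number), so the coverage in reads was recovered by division. Totals were 15127110 reads for p65 KO, 16653841 for K122R and 15665382 for WT p65. The WT p65 reads were equal in both tables. The expected counts (an estimated count per gene, not a whole number) deposited by the authors for the BMDM libraries were rounded to whole numbers and scaled by their median ratio, 0.582, where that of the library totals was 0.950. The authors' columns of fold changes and p-values, and 16 other value columns, were not used. For the BMDM libraries the methods state that biological replicates were mixed before sequencing.

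Reads were scaled by the median ratio over genes averaging 10 or more reads, and log2 ratios used a pseudocount of 1, which understates ratios of low genes. Exact 95% Clopper-Pearson limits of the share of reads were computed with scipy 1.17.1 and cover counting error only. With 1 library a side no test was made, and differences of 1.2-fold or more were called. Where a library had 0 reads, a floor of 3 reads was used. The genes named were the 15 highest and 15 lowest called genes averaging 100 or more reads, list members in order of absolute log2 ratio, the super-enhancer genes, Rela, Nos2 and Zmynd8. Myadm, Slamf8, the Y-linked genes, Xist and some list members, picked for their role, were named after their values were seen. The members and the 25 lists were chosen with earlier results of these data known. Of the 13381 genes, 11826 matched a RefSeq symbol, and 99.8% of these overlapped its GRCm38 position. TMM factors and an exact test at an assumed biological coefficient of variation of 0.2 came from edgeR 4.0.16, as alternatives only. The values of a few list members are not reported here. The scripts were tested on simulated reads with known folds.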

Additional observations from a re-analysis of the deposited data

How the results depend on the processing

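With 1 library a side, leaving out a replicate was not possible, and the depth limits low genes: at 10 to 50 reads a 1.2-fold difference lies within counting error. No paired analysis was possible because each group held 1 library. Counts of genes at least 1.2-fold higher and lower, 3464 and 3644, were 6115 and 6560 without a filter on reads and 542 and 555 at 2-fold. They were 106 and 91 with an exact test from edgeR at an assumed coefficient of variation of 0.2 and an adjusted p under 0.05. With exact binomial p-values from the recovered reads, a setting added once the data had been seen and one that compares libraries only, they were 2488 and 2409, 4897 in all. Both settings kept a 1.2-fold call only where the adjusted p was also under 0.05, so the genes dropped were those that did not reach it. Under library totals, TMM, unscaled deposited values, the housekeeping scale, a pseudocount of 0.1, a minimum of 50 reads, the join on position alone and the remaining added settings, each count was within 1.5 times the first. Library totals moved the median log2 ratio of the feedback genes to -0.0023, of the cytokines to 0.40, of the chemokines to -0.13 and of the interferon-response genes to 0.17. Subtraction of chromosome medians, also chosen after seeing the data, moved those of the cytokines to 0.62 and the chemokines to 0.10. The medians of the LPS-induced and LPS-lowered genes, 0.31 and -0.23, kept their signs in the 5 settings tried: they were 0.17 and -0.38 with library totals, 0.21 and -0.12 with lists at 2-fold, 0.33 and -0.17 with lists chosen by library totals (376 and 1170 genes in place of 650 and 508), and near the first values with TMM and chromosome medians. Of 131 genes followed under 3 settings, 12 were no longer called with library totals. A change of direction could not occur in called genes under these settings. Library totals and TMM moved all genes by -0.15 and -0.005 (log2), less than 1.2-fold, and the pseudocount cannot turn a sign.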

Other observations

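Gene groups outside the inflammatory programme were also read in the K122R and p65 KO libraries, and their counts stand beside 25.9% higher and 27.2% lower among all genes. Of 18 glycolysis and HIF-1 target genes, 5 (27.8%) were higher and 2 (11.1%) lower with K122R, with a median log2 ratio of 0.09 that turned to -0.05 with library totals, and the lower ones were Pfkfb3 and Vegfa, the latter with 2700, 1936 and 1433 reads in p65 KO, K122R and WT p65. Of 16 sterol synthesis genes, 3 were higher and 5 lower. Dhcr7, a late reductase of cholesterol synthesis, had 48, 32 and 51 reads (log2 ratio -0.56), Fdft1, the squalene synthase gene, had 231, 335 and 283 reads (log2 ratio 0.54), and Idi1, an isomerase of the mevalonate pathway, had 600, 412 and 793 reads (log2 ratio -0.53).

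Osteoclast genes were read because Raw264.7 cells can form osteoclasts. Of 10, 6 were compared, 2 were higher and 3 lower. The fusion genes Dcstamp (698, 1408 and 388 reads, log2 ratio 1.02) and Ocstamp (639, 343 and 431 reads, log2 ratio -0.89) lay on opposite sides, and Nfatc1, the master transcription factor of that lineage, had 3319, 2023 and 3677 reads (log2 ratio -0.70). Of 10 sensors of foreign nucleic acid, 3 were higher and 1 lower, the lower one being Cgas with 1387, 1095 and 1745 reads. Of 15 housekeeping genes, 5 (33.3%) were higher and 2 (13.3%) lower, with a median log2 ratio of 0.08 that turned to -0.07 with library totals.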
